A study of Rattus norvegicus with 6 samples.

Results

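The genes described here encode growth cone proteins in 3 families, the BASP1, GAP43 and MARCKS proteins of the inner membrane face (Basp1, Gap43, Marcks, Marcksl1), the collapsin response mediator proteins (Dpysl2, Dpysl3, Dpysl5, Crmp1) and the M6 membrane proteins (Gpm6a, Gpm6b). They are 10 of the 16881 gene symbols in the count tables and take 11 of the 17048 rows, because Marcksl1 has 2 rows. Basp1 was chosen by its measured counts, as 1 of the few genes past the threshold between the Low and Medium films together and the High film, and the other 9 genes were added by family. For these genes the comparisons with High are therefore a description without a test, and only Low against Medium, which did not serve to choose them, is tested.

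RNA came from 6 libraries of wild-type (WT) rat neural stem/progenitor cells (NSPCs), multipotent cells that give rise to neurons and glia. They were grown from the telencephalon of Sprague-Dawley rat embryos and used at low passage. The cells sat for 24 h on carbon films of carbon nanotubes and graphene oxide nanoribbons in medium that maintains stemness. The films were made “High”, “Medium” or “Low” in electrical conductivity by a longer oxidation for lower conductivity, and were coated so that they carried a similar amount of laminin, with 2 libraries for each film. To match the laminin, the authors adjusted the poly-D-lysine pre-coat by film. Their adhesion assays used a lower concentration for Medium than for High or Low. Conductivity therefore cannot be told apart from the pre-coat. No label says whether the 2 libraries of a film come from separate cultures or animals, so the spread between them may be technical, and a film cannot be told apart from how its libraries were prepared.

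A growth cone is the motile tip of a growing neurite, where membrane is added and actin and microtubules are rearranged. BASP1, GAP43 and MARCKS are held to the membrane by fatty acids and by basic stretches that bind the lipid PI(4,5)P2, from which calmodulin or phosphorylation by protein kinase C releases them. Collapsin response mediators bind tubulin and carry the signal of semaphorin to the cytoskeleton, and M6 proteins are multi-pass membrane proteins that promote filopodia and neurite growth.

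Each library held between 5124863 and 6213676 counts, read from the 3′ end of each transcript by QuantSeq, so that a count does not grow with transcript length. Ribosomal RNA rows took from 26.1% to 38.4% of the counts on High and from 7.16% to 13% in the other films. Levels are given as CPM after TMM scaling (counts scaled to a library of a fixed size, which edgeR adjusts), and 7729 rows with enough counts were tested. Among markers of NSPCs, Nes had from 344 to 2380 counts, Sox2 from 1116 to 4869 and Vim from 8301 to 21925 in every library, while Msi1 and Hes5 had 0 in all 6. Replicates differed widely, with a biological coefficient of variation of 1.43 across all genes tested.

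RefSeq promoter windows (build GRCr8, from 250 bases before to 50 bases after the annotated start) were found for 7 of the 10 genes, and not for Gap43, Dpysl2 and Gpm6b. Those of Basp1 and Crmp1 are shown because every Low and Medium library lay above both High libraries for these genes, and that of Gpm6a because its levels followed a different order across the films. They lie at chr2:77594248-77594547 (minus strand) for Basp1, chr14:77780867-77781166 (minus strand) for Crmp1 and chr16:43706412-43706711 (minus strand) for Gpm6a, and capitals mark GC boxes.
Basp1: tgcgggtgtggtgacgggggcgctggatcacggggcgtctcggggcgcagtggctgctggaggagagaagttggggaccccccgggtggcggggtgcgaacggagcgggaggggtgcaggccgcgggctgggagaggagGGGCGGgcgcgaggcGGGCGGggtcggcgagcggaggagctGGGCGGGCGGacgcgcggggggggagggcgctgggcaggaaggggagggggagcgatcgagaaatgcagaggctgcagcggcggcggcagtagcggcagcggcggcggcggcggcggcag
Crmp1: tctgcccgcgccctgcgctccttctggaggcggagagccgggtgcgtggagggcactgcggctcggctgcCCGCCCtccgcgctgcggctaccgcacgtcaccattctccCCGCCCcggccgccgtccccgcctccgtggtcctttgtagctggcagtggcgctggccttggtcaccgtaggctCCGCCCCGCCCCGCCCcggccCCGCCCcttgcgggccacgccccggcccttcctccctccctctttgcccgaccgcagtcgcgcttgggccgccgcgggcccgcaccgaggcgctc
Gpm6a: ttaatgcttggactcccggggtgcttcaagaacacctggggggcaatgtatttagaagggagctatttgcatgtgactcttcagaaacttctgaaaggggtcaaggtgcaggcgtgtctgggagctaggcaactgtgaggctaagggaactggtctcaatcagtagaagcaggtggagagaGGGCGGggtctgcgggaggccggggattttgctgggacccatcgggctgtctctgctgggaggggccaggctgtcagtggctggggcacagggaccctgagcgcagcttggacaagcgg

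The GC box was searched as the letters GGGCGG on both strands, with overlapping matches counted. The window of Basp1 held 4 matches, that of Crmp1 6 and that of Gpm6a 1, and 33.1% of the 33469 windows in the table held at least 1. GC content was 78.3% for Basp1 and 77.7% for Crmp1, above 98.5% and 98.2% of all windows, whereas Gpm6a had 58.7% beside a median of 51.7%. None of these 3 windows held the letters CCAAT (in 37.5% of all windows), TATAAA (14.2%), TGACGTCA (1.83%) or CAGCTG (15.1%) on either strand. A match is a run of letters, and the counts of RNA do not bear on what binds there.

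Basp1 encodes an abundant myristoylated membrane protein of axon endings. It had 1726 and 1388 counts on High, 10320 and 6027 on Medium, and 10372 and 7485 on Low, which is 356 and 331 CPM, 1771 and 989 CPM, and 1503 and 1256 CPM. All 4 Low and Medium libraries exceeded both of High, and the 2 High libraries were close to each other. The means were 343 ± 17.3 CPM (SD, n = 2) on High, 1380 ± 553 on Medium and 1380 ± 174 on Low, and the fitted log2 fold change was 2.01 (standard error 0.32) for Low and also 2.01 (standard error 0.32) for Medium, each against the same 2 High libraries. By count, Basp1 ranked 472 and 482 among all rows in the High libraries and between 50 and 111 in the other 4. With the ribosomal RNA rows left out the log2 fold change of Low and Medium together was 1.995, beside 2.01 with them. In bulk RNA, more cells of a type that makes a transcript and more of it in each cell cannot be told apart.

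Gap43, a palmitoylated substrate of protein kinase C, was sparser and less even. It stood at 57.1 and 18.4 CPM on High, 26.9 and 146 CPM on Medium, and 168 and 110 CPM on Low. Both Low libraries lay above both High libraries, but Medium replicate 1 fell between the 2 High libraries. The log2 fold change was 1.88 (standard error 1.13) for Low and 1.19 (standard error 1.10) for Medium against High, an error several times that of Basp1. For Low and Medium together it was 1.54, but 2.58 with High replicate 1 left out and 0.69 with Medium replicate 2 left out.

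Marcks, which shields PI(4,5)P2 and cross-links actin, was at 405 and 155 CPM on High, 365 and 820 CPM on Medium, and 766 and 708 CPM on Low. As with Gap43, Medium replicate 1 lay between the High libraries and the other 3 Low and Medium libraries lay above them. The log2 fold change was 1.40 (standard error 0.50) for Low and 1.08 (standard error 0.50) for Medium. Together they gave 1.24, which was 2.09 without High replicate 1 and 0.71 without High replicate 2. Its smaller relative Marcksl1 showed no such order. Its first row gave 117 and 39.6 CPM on High, 76.7 and 61.7 CPM on Medium, and 75.2 and 45.5 CPM on Low, so that the 4 Low and Medium libraries all lay between the 2 High libraries. The second row held between 0.873 and 1.07 times the counts of the first. The authors counted reads that align to more than 1 place, so the 2 rows may share reads and are not independent.

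Of the collapsin response mediators, Dpysl2 (CRMP2, which binds tubulin dimers and favors axon growth) had the most counts in 5 of 6 libraries. It was at 162 and 62.5 CPM on High, 118 and 201 CPM on Medium, and 248 and 221 CPM on Low. Both Low libraries lay above the other 4, while Medium and High overlapped. The log2 fold change was 1.06 (standard error 0.63) for Low and 0.51 (standard error 0.63) for Medium. The joint value of 0.79 was 1.63 without High replicate 1 and 0.26 without High replicate 2.

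Crmp1 had 0 counts in both High libraries, 52 and 51 on Medium, and 231 and 54 on Low. A count of 0 allows up to 3 counts, or a mean of 0.667 CPM over the High libraries. The observed mean was at least 31.9-fold that value on Low (21.3 ± 17.3 CPM, SD, n = 2) and at least 13-fold on Medium (8.64 ± 0.396 CPM). The bound for Low rests on replicate 1 (33.5 CPM), since replicate 2 alone (9.06 CPM) gives at least 13.6-fold, close to the bound for Medium. These bounds cover counting error on High only, and not the spread between replicates. The fitted 95% intervals of the log2 fold change against High include 0, from −1.52 to 21.3 for Low and from −2.18 to 19.4 for Medium. Rows at 0 in 1 replicate with 50 or more counts in the other were common, namely 1420 on High, 2084 on Medium and 1408 on Low. Dpysl3 (CRMP4) was of that kind, with 98 and 305 counts on High, 0 and 69 on Medium, and 191 and 9 on Low, and its films overlapped. Its joint log2 fold change of −2.35 was −6.35 with Medium replicate 2 left out and −1.15 with High replicate 2 left out. Dpysl5 (CRMP5) had 0 counts in all 6 libraries, which allows up to between 0.435 and 0.716 CPM per library, and it could not be tested.

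The M6 genes differed from each other. Gpm6b was at 51.1 and 63.7 CPM on High, 399 and 200 CPM on Medium, and 286 and 245 CPM on Low. Every Low and Medium library exceeded both of High, as for Basp1, and the log2 fold change was 2.21 (standard error 0.54) for Low and 2.38 (standard error 0.55) for Medium. Gpm6a was at 196 and 108 CPM on High, 237 and 242 CPM on Medium, and 71.3 and 85.3 CPM on Low. Both Low libraries thus lay under both High libraries and both Medium libraries above them, with a log2 fold change of −0.96 (standard error 0.58) for Low and 0.66 (standard error 0.58) for Medium. This order was noticed after the values were seen and was found in 51 of the 7729 rows tested (0.66%). It did not hold with library sizes alone, where High replicate 2 (83.7 CPM) fell between the Low libraries (79.5 and 93.4 CPM).

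**Figure D1:**
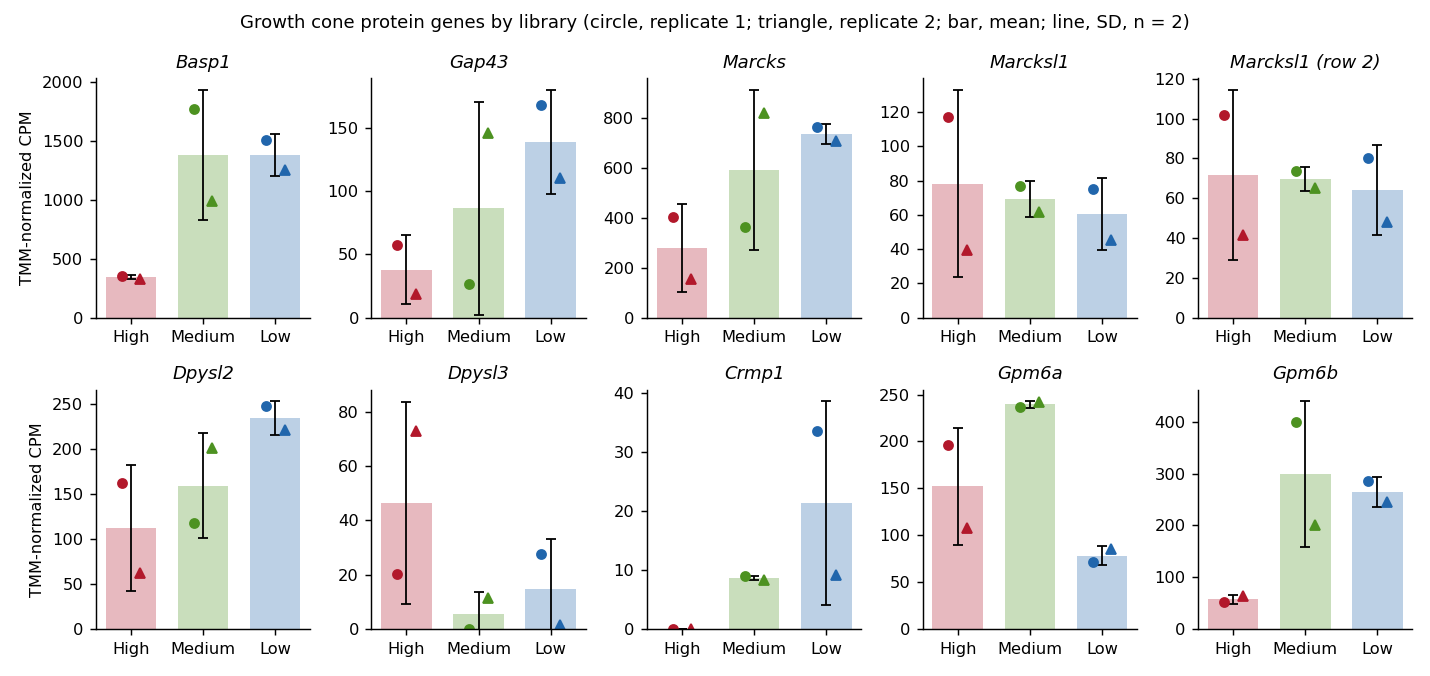
TMM-normalized CPM (vertical axis, from 0, a scale for each panel) of the 10 rows tested, by film. Circles and triangles are replicates 1 and 2, bars are means and lines the SD (n = 2). Basp1, Gpm6b and Crmp1 have all 4 Low and Medium libraries above both of High, and Gpm6a has Low lowest and Medium highest.

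Summed over the first row of each gene, these genes reached 1364 and 850 CPM on High, 3003 and 2678 CPM on Medium, and 3178 and 2682 CPM on Low, and Basp1 made up 26.1% and 38.9%, 59% and 36.9%, and 47.3% and 46.8% of that sum. The sum thus kept High apart from the other films, but it includes Basp1, which was chosen by Low and Medium against High. A sum without Basp1 was not computed. The share of Basp1 on Medium overlapped with that on both other films.

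**Figure D2:**
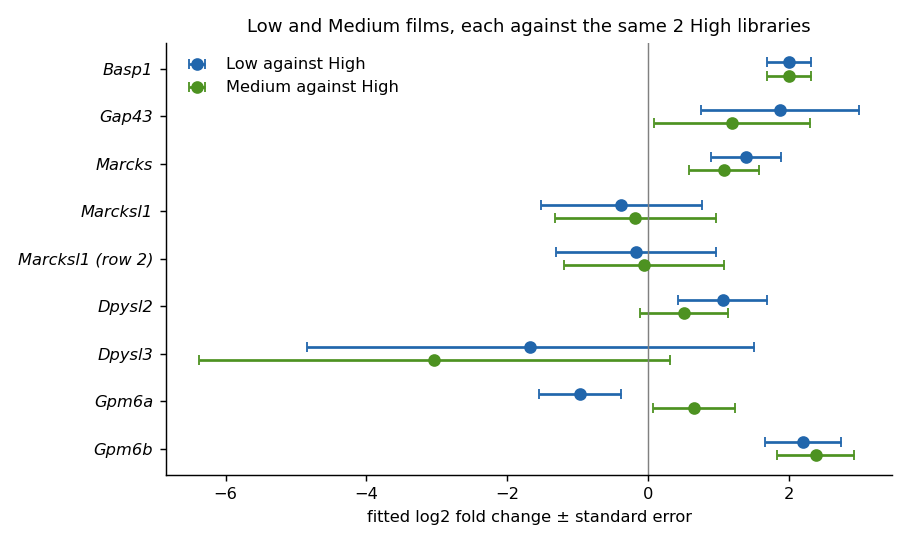
Fitted log2 fold change of Low (blue) and Medium (green) against the same 2 High libraries, with the standard error as a line, for 9 of the rows tested. Crmp1 is left out because both High libraries were at 0. Basp1 and Gpm6b have values near 2 on both films, Dpysl3 has the widest errors, and the values of Gpm6a lie on opposite sides of 0.

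As a list, the 10 rows tested had a median log2 fold change of 1.01 for Low and Medium together against High, beside −0.12 over all 7729 rows, and 6 of the 10 were above 0, beside 46.3% of all rows. The list includes Basp1, which this contrast chose, and holds Marcksl1 as 2 rows that are not independent. With each library raised to 3 counts, which keeps Crmp1 at its bound, the medians were 1.01 and −0.10. The median depends on the High libraries, being 1.85 without High replicate 1 and 0.48 without High replicate 2, and it was 0.62 without Medium replicate 2. All 4 Low and Medium libraries exceeded both of High in 3 of the 10 rows (Basp1, Crmp1, Gpm6b) and in 8.06% of all rows tested, and lay below both in 0 of the 10 rows and in 10.1% of all. Of these rows, Basp1 was chosen by this contrast, and Crmp1, at 0 on High, could pass the filter only through the other films. The count of rows above High was 8 without High replicate 1, which held more Gap43, Marcks, Marcksl1 and Dpysl2 than High replicate 2. It was 6 without Medium replicate 1. The share of all rows was not computed with a library left out, and fewer libraries make such an order easier to meet.

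Basp1 was the 1 row of the 10 past an adjusted p of 0.05 in that contrast by the quasi-likelihood test of edgeR, which called 0.129% of all rows. DESeq2 called 2 of the 10, Basp1 and Gpm6b (4.84% of the 7340 rows for which it gave an adjusted p), and limma-voom called 0 of the 10 (0.298% of all rows). Because the contrast chose Basp1, nothing is read from these counts.

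The difference between the Low and Medium films was tested for each row. None of the 10 rows passed an adjusted p of 0.05 with edgeR's quasi-likelihood test, which called 0 of the 7729 rows (0%), and DESeq2 (1.58% called of the 7712 rows with an adjusted p) and limma-voom (0% called) also called 0 of the 10. At an unadjusted p under 0.05 there was 1 of the 10 rows, Gpm6a, and 1.51% of all rows.

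Gpm6a was at 78.3 ± 9.89 CPM (SD, n = 2) on Low and 240 ± 3.70 CPM on Medium, a log2 fold change of −1.61 with a 95% interval from −2.94 to −0.29. Both Low libraries lay under both Medium libraries, as they did in 12.6% of all rows. Its unadjusted p was 0.0214 and its adjusted p 1 over all rows in edgeR's test, and over the alternatives the adjusted p ran from 0.0747 with DESeq2 to 1. The log2 fold change itself moved little, from −1.75 to −1.49 when 1 library was left out.

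Basp1 had the narrowest interval, a log2 fold change of −0.00032 between the films with a 95% interval from −0.68 to 0.68, so that a difference of either direction within that range was not resolved. The interval ran from −0.78 to 1.41 for Marcks, from −1.33 to 0.98 for Gpm6b, from −0.84 to 1.95 for Dpysl2 and from −1.75 to 3.12 for Gap43. For Dpysl3 and Crmp1 it spanned over 10 log2 units, and no difference could be seen at these counts. Low lay above Medium without overlap in 2 of the 10 rows, Dpysl2 and Crmp1, and in 16.3% of all rows, and the adjusted p of both was 1. Without Medium replicate 2 the log2 fold change of Gap43 was 2.39 and that of Dpysl3 was 9.35, and without Low replicate 1 that of Dpysl3 was −1.89 and that of Crmp1 0.07.

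**Figure D3:**
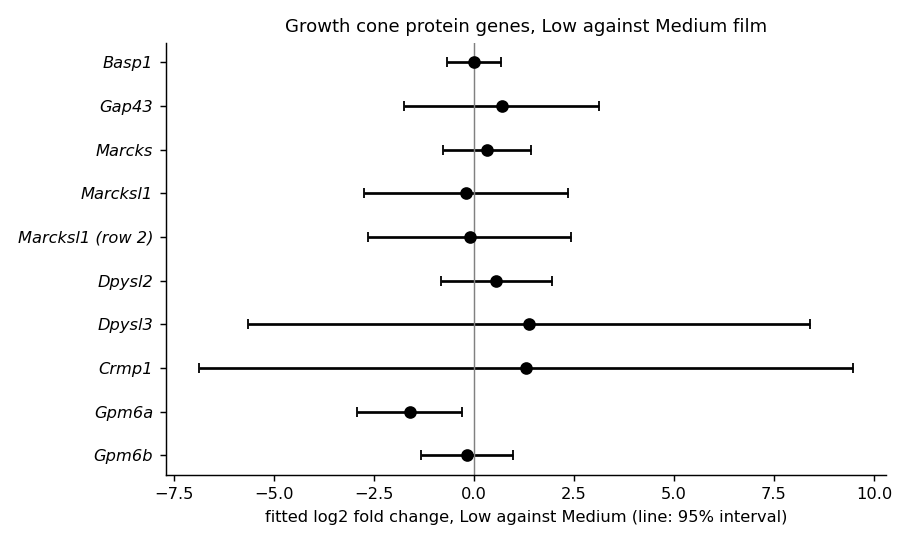
Fitted log2 fold change of Low against Medium for the 10 rows tested, with 95% intervals as lines. The interval of Gpm6a, from −2.94 to −0.29, does not reach 0, but its adjusted p was 1, and the other 9 intervals include 0.

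The balance between the M6 genes can be read within each library, where scaling between libraries drops out. Of the counts of Gpm6a and Gpm6b together, Gpm6b gave 20.6% and 37.2% on High, 62.7% and 45.2% on Medium, and 80.1% and 74.2% on Low. Exact Clopper-Pearson 95% intervals, which cover counting error only, ran from 18.4% to 23.1% and from 33.6% to 40.8% in the High libraries and were narrower in the others. The means were 28.9 ± 11.7% (SD, n = 2) on High, 54.0 ± 12.4% on Medium and 77.2 ± 4.17% on Low, and the films did not overlap. This share was set up after the values were seen, so it is a description without a test. The summed level of both genes was 247 and 171 CPM on High, 637 and 442 CPM on Medium, and 357 and 330 CPM on Low, in that order of films without overlap from High to Low to Medium.

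**Figure D4:**
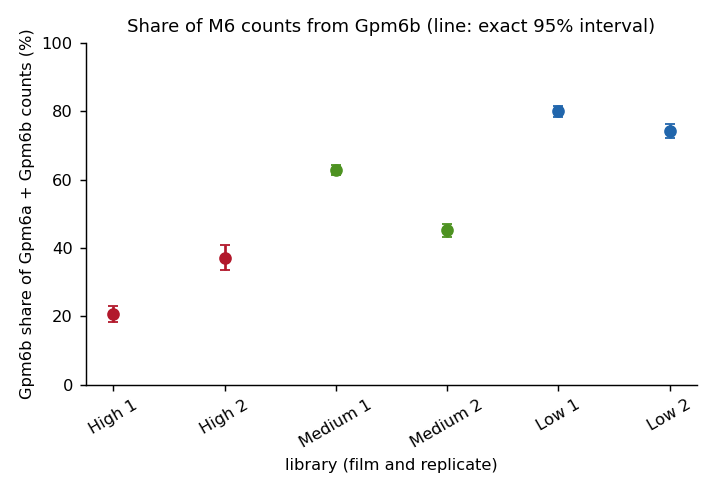
Share of the counts of Gpm6a and Gpm6b together that came from Gpm6b (vertical axis, percent) in each library, with exact 95% intervals for counting error. The share lies between 20.6% and 37.2% on High, 45.2% and 62.7% on Medium, and 74.2% and 80.1% on Low.

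Among these genes, Gpm6b followed Basp1 most closely across the 6 libraries (Pearson's r of 0.99 on log2(CPM + 1)), then Crmp1 (0.93), Marcks (0.65), Dpysl2 (0.57) and Gap43 (0.45). It was 0.01 for Marcksl1, −0.08 for Gpm6a and −0.70 for Dpysl3. These values describe 6 libraries that fall into 3 films and are given without a p. Among the 4307 other rows with a mean log CPM of at least 5, the 5 closest were Tmsb10 (r of 0.99), an actin monomer-binding thymosin, Dock1 (0.99), an activator of the GTPase Rac, Prkcdbp (0.99), Dlgap5 (0.98), a protein of the mitotic spindle, and Rps27l (0.98). Tmsb10 had 341 and 337 CPM on High, 966 and 646 CPM on Medium, and 739 and 736 CPM on Low, and Dock1 had 5.56 and 2.62, 89.8 and 44.8, and 94.2 and 48.7 CPM in the same order.

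Genes that act with these proteins were taken from 5 lists of 79 genes in all, chosen with earlier results of these data known, of which 77 had a row and 54 could be tested, in 55 rows. For Low and Medium together against High, 1 row rose and 0 fell at an adjusted p of 0.05 (edgeR's quasi-likelihood test), beside the 0.129% called of all rows. With DESeq2, 6 rows were called higher and 1 lower, beside 4.84% of the rows with an adjusted p in that test, and limma-voom called 4, beside 0.298%. At an unadjusted p under 0.05, edgeR had 6 rows higher and 1 lower of the 55, beside 5.5% of all rows. For Low against Medium, edgeR called 0 of the 55, DESeq2 and limma-voom also 0, and 1 had an unadjusted p under 0.05.

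The gene that rose was Tuba1a, the alpha tubulin of growing neurites, in the list of other growth cone and neurite genes. It was at 822 ± 92.7 CPM (SD, n = 2) on High, 2494 ± 303 on Medium and 2245 ± 90.1 on Low, which differs on the log2 scale by 1.53 with a standard error of 0.21 (adjusted p = 0.0278 in edgeR's test), and it passed in each alternative fit. Of the 15 rows tested in this list, 1 rose and 0 fell, and their median was 0.92 with each library raised to 3 counts. Tubb2b, a beta tubulin of new neurons, was at 556 ± 145 CPM on High, 1414 ± 238 on Medium and 941 ± 79.1 on Low (log2 fold change 1.05, adjusted p = 0.353 in edgeR's test). Stmn1 and Map1b, which act on microtubules, had log2 fold changes of 0.05 and 0.29 with adjusted p of 1 in edgeR's test.

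In the list of calmodulins, protein kinase C and acylating enzymes, 0 of 13 rows passed and 3 had an unadjusted p under 0.05, all higher in edgeR's fit. DESeq2 called 2 of these rows and limma-voom also 2, beside the shares of all rows given above. The second row of Calm2, which encodes calmodulin, was at 1013 ± 62.6 CPM on High, 2043 ± 204 on Medium and 1831 ± 8.30 on Low, which differs on the log2 scale by 0.93 with a standard error of 0.20 (adjusted p = 0.204 in edgeR's test). The first row of Calm2 did not rise, at 258 ± 1.80 CPM on High, 202 ± 15.7 on Medium and 206 ± 146 on Low (log2 fold change −0.335, standard error 0.48). Nrgn, a calmodulin-binding substrate of protein kinase C, had 1.04 (standard error 0.46, adjusted p = 0.801), and Ppp3r1, the regulatory subunit of calcineurin, had 0.71 (standard error 0.32, adjusted p = 0.801).

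Of the 15 phosphoinositide and actin effectors tested, 0 passed in edgeR's test, with 1 higher and 1 lower at an unadjusted p under 0.05 and the same number each way with DESeq2. Pip5k1a, a kinase that makes PI(4,5)P2, was at 1455 ± 173 CPM on High, 764 ± 247 on Medium and 788 ± 8.81 on Low (log2 fold change −0.91, adjusted p = 0.473). Fscn1, which bundles actin in filopodia, was at 719 ± 192 CPM on High, 1501 ± 233 on Medium and 1380 ± 279 on Low (log2 fold change 1.002, adjusted p = 0.468). Cfl1, which severs actin, and the GTPase Cdc42 had log2 fold changes of −0.37 and −0.59 (adjusted p of 0.849 and 0.801, all from edgeR's test).

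Of the semaphorin receptors and kinases or phosphatases of the collapsin response mediators, 0 of 11 rows passed or had an unadjusted p under 0.05 in edgeR's test, and DESeq2 called 0. Rock2, a kinase that acts on actomyosin, was at 150 ± 51.9 CPM on High, 136 ± 119 on Medium and 261 ± 98.4 on Low. Gsk3a, which phosphorylates the collapsin response mediators, had 0 counts in replicate 1 of High and Medium and 520 and 845 in replicate 2. Sema3a, Sema3f and Nrp2 had 0 counts in all libraries.

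**Figure D5:**
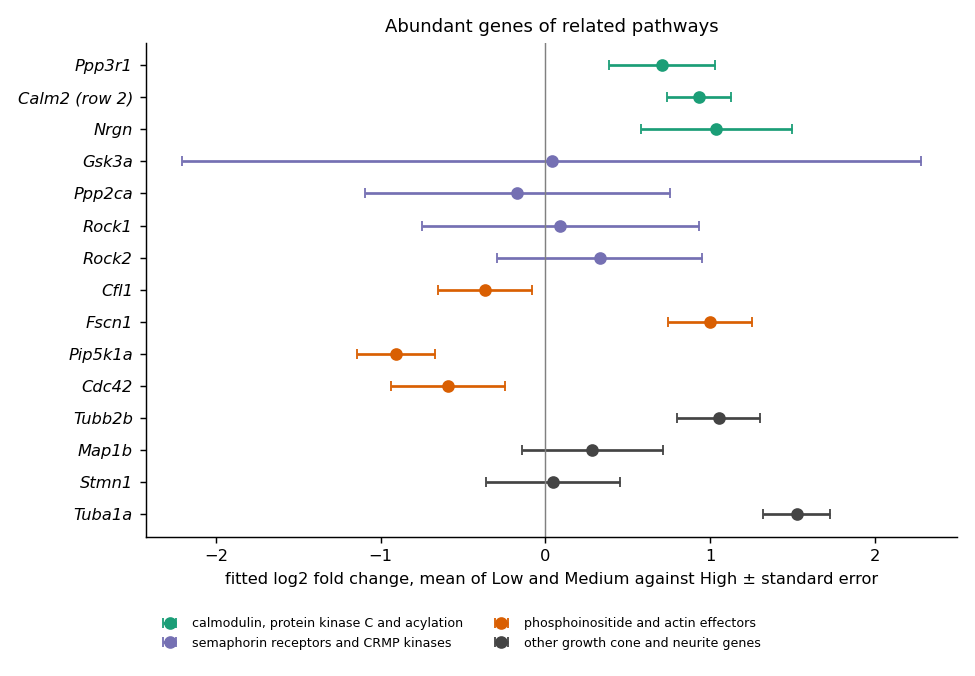
Fitted log2 fold change of Low and Medium together against High, with the standard error as a line, for abundant genes tested in 4 related lists (colors; 3 genes of the calmodulin list and 4 of each other list). Tuba1a at 1.53 is the 1 gene here with an adjusted p under 0.05 in edgeR's test. Besides Tuba1a, DESeq2 (4.84% of rows called) also called Fscn1, Tubb2b, Pip5k1a and the second row of Calm2. Limma-voom (0.298% called) also called Pip5k1a and the second row of Calm2.

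Summed marker levels of NSPCs and other cell types are given per film, and their part in the values above was not tested. No marker row of any list passed an adjusted p of 0.05 in edgeR's test in either contrast. For Low and Medium together against High, DESeq2 called 3 NSPC rows and 1 oligodendrocyte lineage row, all higher. That test called 4.84% of all rows with an adjusted p. At an unadjusted p under 0.05, edgeR had 3 of the 8 NSPC rows tested (Vim, Sox2, Nes), all higher. It also had 1 of the 5 oligodendrocyte lineage rows tested (Olig2), higher as well, beside 5.5% of all rows. The other marker lists had 0 in both tests. The 12 rows for neuronal progenitors and neurons summed to 25.5 to 73.6 CPM on High, 130 to 139 on Medium and 80.1 to 194 on Low, with 6 of the 12 at 0 throughout (Slc17a7, Rbfox3, Gad2, Tbr1, Neurod1, Syt1). Tubb3 had 96 and 72 counts on Low and 0 in the other 4 libraries, and Dcx had 85 on Low replicate 2 and at most 1 elsewhere. Others went differently, with Elavl3 at 100 counts on High replicate 1 and 0 elsewhere, and Snap25 at 52 on High replicate 2 and 0 elsewhere. Elavl4 had means of 30.1 CPM on High, 114 on Medium and 78.3 on Low. The 10 rows for NSPCs summed to 2601 to 3001 CPM on High, 4233 to 4554 on Medium and 3766 to 4828 on Low, most of it Vim (1980 to 3680 CPM). Fabp7, a marker of radial glia, had means of 215 CPM on High, 249 on Medium and 80.4 on Low (Low against Medium unadjusted p = 0.0336, adjusted p = 1 in edgeR's test), and Hes1, a Notch target, had means of 72.5, 50.2 and 33.6 CPM. The 9 oligodendrocyte lineage rows summed to 351 to 439, 605 to 691 and 652 to 838 CPM in the same order, with Olig2 at 751 to 2387 counts in every library and Sox10 at 0. Astrocyte rows summed to 256 to 295, 371 to 377 and 328 to 547 CPM, with 70 counts of Gfap for High replicate 1 and 0 elsewhere. Microglial rows reached at most 7.10 CPM in any library, with 5 of 7 at 0, and meningeal and vascular rows reached 338 CPM on Medium replicate 2 and at most 35.8 CPM elsewhere.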

How the data were processed

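Rat NSPCs on 3 films, with 2 libraries each, were profiled by QuantSeq. The authors aligned reads with Bowtie2 (build rn6, per the labels), took read counts per gene, multiple alignments included, from bedtools coverage, and deposited these raw counts without their TMM normalization. Versions are not given in the sources used here. No molecular identifiers are named, so reads copied from the same molecule during amplification cannot be told apart from separate molecules. The exact intervals and the bounds from absent counts cover counting error only. They treat each count as independent, so they may be too narrow even for that error. RNA isolation is named differently in the labels (Trizol) and the methods (Ribospin).

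Rows with a repeated symbol were kept apart. With R 4.3.3, rows passing filterByExpr of edgeR 4.0.16 (7729) were scaled by TMM and tested with glmQLFTest, all 6 libraries in one fit of the 3 film means, two-sided, with Benjamini-Hochberg adjustment over all rows. Standard errors and 95% intervals come from the F statistic and the fit's degrees of freedom (3 residual, 6.96 prior). Alternatives were DESeq2 1.42.0, limma 3.58.1 (voom), other scalings, no filter, removal of ribosomal RNA rows, a replicate block, a prior count of 3 and leaving out each library. The scripts were tested on simulated counts.

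The genes and lists were chosen with earlier results of these data known. Named are all 10 genes, and of each related list the 4 most abundant genes tested plus any past the threshold, except for a few items that are not reported here. Likeness to Basp1 was ranked among rows with a mean log CPM of at least 5. Promoter windows come from RefSeq (GRCr8), a later build than that of the counts, and were matched by symbol.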

Additional observations from a re-analysis of the deposited data

Results flagged for a closer look

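For Gpm6a, both Low libraries lay under both High libraries and both Medium libraries above them, so that the 2 films lay on opposite sides of High. The same order was met in 51 of the 7729 rows tested (0.66%), and for Gpm6a it did not hold with library sizes alone. The direct test between the films, Low against Medium, gave a log2 fold change of −1.61, with an adjusted p of 1 in edgeR's quasi-likelihood test, so the difference did not pass. Groups of 2 libraries are too small for a test of outlying samples.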

How the results depend on the processing

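For Low and Medium together against High, 1 of the 10 rows was called at first. The count was 3 without a filter (Basp1, Marcks, Gpm6b), 2 with DESeq2, 0 with limma-voom (adjusted p of Basp1 0.0668) and 2 with the replicate block, and from 1 to 3 with 1 library left out. Calls over all genes also rose in these fits, from 10 of 7729 rows to 68 of 9566, 355, 23, 57 and, with 1 library left out, 34 to 242. Basp1 was called in each of the other fits. Of the related genes 1 of 55 rows was called at first, against 6 of 68 without a filter, 7 of 68 with DESeq2, 4 with limma-voom and 3 with the replicate block, and from 1 to 6 with 1 library left out. The median log2 fold change of the rows ran from 0.48 to 1.85 with 1 library left out, and the count of rows with all Low and Medium libraries above High ran from 3 to 8. The share of all rows with that order was not computed in these fits. Library sizes alone moved the median of all rows from −0.12 to 0.26 and turned Marcksl1 to 0.0764 (0.25 in its second row) and Gpm6a to 0.22. With 1 library left out Marcksl1 ran from −0.86 to 0.71, its second row from −0.61 to 0.69 and Gpm6a from −0.52 to 0.35, each with its highest value without High replicate 1.

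For Low against Medium, 0 of the 10 rows and 0 related genes were called in each alternative. The median ran from −0.22 without Low replicate 1 to 0.42. Signs changed for values near 0, such as Basp1, and for larger ones, such as Gap43 (0.69 at first) and Dpysl3 (1.36 at first). Basp1 was 0.0033 with library sizes alone, 0.084 with limma-voom, 0.0293 without ribosomal RNA rows and 0.0393 with the replicate block. With 1 library left out Basp1 ran from −0.34 to 0.48, Gap43 from −0.0685 to 2.39, Marcks from −0.15 to 1.04, Gpm6b from −0.56 to 0.41, Marcksl1 from −0.61 to 0.12, its second row from −0.53 to 0.21 and Dpysl3 from −1.89 to 9.35. The cause was not tested. Where a film was left with 1 library, that library was assumed to vary like the others. Replicate numbers share nothing in the labels beyond the number, and the replicate differences of 2 films correlated at 0.0034 to 0.0073 across rows, so the block is an alternative only.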
